A study of Mus musculus with 6 samples.

Results

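10 genes that build and move the melanosome were followed in mouse melanoma cells given a sugar analog: Hps1, Hps3, Hps4, Hps5, Hps6, Ap3b1, Ap3d1, Mlph, Myo5a and Lyst. They were chosen by name for their known roles, and all 10 were found among the 21801 genes of the deposited table, as 32 of its 59192 transcript models. The cells were B16F10-OVA, a pigmented melanoma line of the mouse whose genotype is given as ovalbumin-expressing, and both groups carry that transgene. 3 libraries came from untreated cells. The other 3 came from cells kept for 5 days in 50 µM Ac4ManNAz, an acetylated, azide-bearing N-acetylmannosamine that cells turn into azido sialic acid, with a passage on day 3. The comparison asks whether this metabolic labelling disturbs the transcriptome. Nothing in the labels says that the 3 libraries of a group are separate cultures, so p-values speak of the spread among these 6 libraries, which may be technical.

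The melanosome is a lysosome-related organelle of pigment cells. Early endosomes send melanin enzymes to it in carriers sorted by the adaptor complex AP-3, whose large subunits are encoded by Ap3b1 and Ap3d1, and by the complexes called BLOC-1, BLOC-2 and BLOC-3. BLOC-2 contains the products of Hps3, Hps5 and Hps6. BLOC-3, made of the Hps1 and Hps4 products, is the exchange factor that activates the small GTPases Rab32 and Rab38. Mature melanosomes are held at the cell edge by myosin Va, the motor encoded by Myo5a, which reaches the organelle through melanophilin, the product of Mlph, and Rab27a. Lyst encodes a very large protein that controls the size of lysosomes and related organelles. Loss of these genes dilutes coat colour in mice, and loss of several of the human counterparts causes Hermansky-Pudlak, Griscelli or Chediak-Higashi syndrome.

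Levels are FPKM, fragment numbers scaled by transcript length and library depth, summed over the models of a gene. They can be set side by side between genes, though a short partial model can raise a sum. The libraries summed to 310003 to 347126 FPKM and listed 9678 to 10042 genes at 1 FPKM or more. The table holds no counts. If the smallest recurring step of FPKM times transcript length is worth 1 fragment, the libraries held 30200000 to 45100000 fragments. The cells carried the marks of the line. The 7 melanocyte markers summed to 7636 to 9313 FPKM without the analog and to 7431 to 9093 FPKM with it, most of it Pmel, the fibril protein of the early melanosome, and Tyrp1, a melanin enzyme. Pmel was listed at 3806 to 4620 FPKM without the analog and at 3769 to 4760 FPKM with it. Mlana, a melanosomal membrane protein gene of the same list, was listed at 158 FPKM in treated replicate 2 and at 856 to 1269 FPKM in the other 5 libraries. Markers of T and B cells summed to at most 0.218 FPKM, of epithelium to at most 0.565, of endothelium to at most 1.41, of fibroblasts to at most 4.505 and of myeloid cells to at most 5.77. In each of these 5 lists the ranges of the groups overlapped.

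After 5 days of Ac4ManNAz, none of the 10 genes passed the test. Ap3d1, Ap3b1, Mlph, Myo5a and Hps6 stayed close to their untreated level, with 95% intervals of the difference inside 1.5-fold either way, as for 64.3% of all tested genes. The intervals of Hps1, Hps3, Hps4 and Lyst were wider and lay within 2-fold on the log2(FPKM + 1) scale, which held for 9 of the 10 members and for 91% of all tested genes. For Hps3 and Hps4 this bound depended on the offset and on single libraries. With a pseudocount of 0.1 the interval of Hps3 reached 1.04 and that of Hps4 -1.15, and with 1 library left out 7 to 9 of the 10 members lay within 2-fold. Hps5 was the exception. Its level was 1.75 ± 0.589 FPKM without the analog and 0.814 ± 0.218 FPKM with it (mean ± SD, n = 3 per group, as for all values in this form), and it was the single member whose groups did not overlap. That separation depended on single transcript models, described below. The test was limma on log2(FPKM + 1) over the 9925 genes that averaged 1 FPKM or more, two-sided, with Benjamini-Hochberg adjustment. It called 0 of the 10 members and 0 of all genes (0%), and every member had an adjusted p of 0.9998. At an unadjusted p under 0.05 it placed 1 member, Hps5, against 1.78% of all genes tested, or 0.907% counting those lower in treated cells. Hps5 reached the filter of 1 FPKM only through its untreated libraries, so its p is no independent support for a difference. 5 members averaged higher and 5 lower, with a median difference of -0.01 on the log2 scale, beside -0.0014 over all genes tested.

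**Figure D1:**
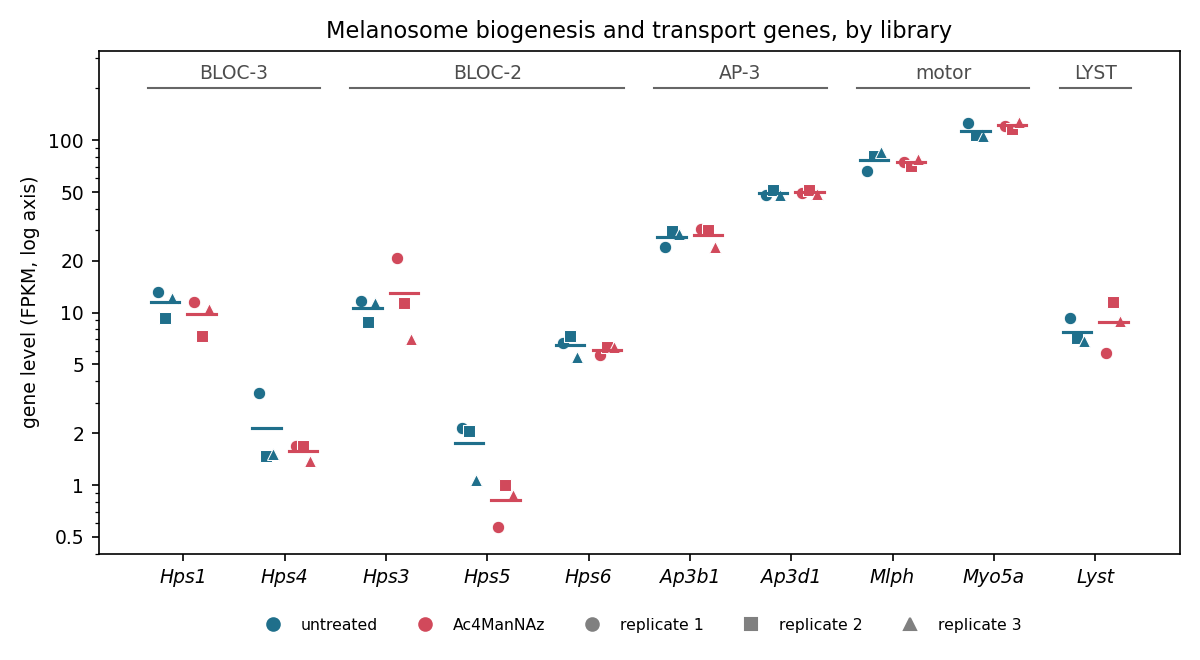
Level of each gene in each library (FPKM, log axis), with untreated libraries in blue, Ac4ManNAz libraries in red, marker shapes for the replicate number and bars at the group means. The genes span from Hps5, at 0.573 to 2.14 FPKM, to Myo5a, at 106 to 128 FPKM, and Hps5 is the one gene whose red points all lie below its blue points.

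The genes differed widely in abundance, and by summed FPKM the 4 most abundant kept the same order in all 6 libraries. Myo5a stood highest in every library, at 106 to 128 FPKM, followed by Mlph at 65.8 to 84.9, Ap3d1 at 47.9 to 51.4 and Ap3b1 at 24.0 to 30.6 FPKM. The ranges of these neighbours did not overlap across the 6 libraries. The first place of Myo5a rested on adding Myo5a-203, a partial model of 684 bases. Its long model Myo5a-201 alone was listed at 48.8 to 59.5 FPKM. That is below Mlph-201, at 65.4 to 83.2 FPKM, in every library, and it overlaps the range of Ap3d1. Hps3 (7.05 to 20.8 FPKM), Hps1 (7.27 to 13.2), Lyst (5.87 to 11.5) and Hps6 (5.496 to 7.29) followed with overlapping ranges, so their order among themselves was not resolved. Hps4 (1.38 to 3.40 FPKM) lay below all of these, and its range overlapped that of Hps5 (0.573 to 2.14). Among the followed genes, Myo5a, Mlph, Ap3d1 and Ap3b1 were thus listed above the BLOC-2 and BLOC-3 genes. This did not extend to all subunits: Ap3m2 of AP-3 lay at 5.14 to 8.84 FPKM and Bloc1s2 of BLOC-1 at 21.2 to 27.1 FPKM. The coefficient of variation was 2.96% for Ap3d1 and 50.6% for Hps5, beside a median of 15.6% over all genes tested. For Ap3d1, 0.252% of tested genes varied less.

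Both subunits of BLOC-3 averaged slightly lower with the analog, within the spread of the libraries. Hps1 (chromosome 19, 42743544 to 42768417, coordinates as deposited) was listed at 13.2, 9.33 and 12.2 FPKM in replicates 1 to 3 of the untreated cells, against 11.4, 7.27 and 10.6 FPKM in replicates 1 to 3 of the treated ones. The highest 2 values were untreated and the lowest was treated, but the ranges overlapped. The log2 difference was -0.23 with a 95% interval from -0.70 to 0.24. Hps4 (chromosome 5, 112490949 to 112526280) was listed at 3.40, 1.48 and 1.52 FPKM without the analog, against 1.68, 1.68 and 1.38 FPKM with it. Untreated replicate 1 stood apart from the other 5 libraries, which lay between 1.38 and 1.68 FPKM. The log2 difference of -0.23 (-0.81 to 0.35) became 0.04 without that library. Per length, Hps1 transcript exceeded that of its partner in every library, by 6.08 ± 2.10 times in untreated and 6.27 ± 1.73 times in treated cells (exact two-sided permutation p = 0.8, adjusted over 5 ratios p = 1).

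Within BLOC-2, Hps5 was lower in the treated libraries without passing the adjusted test, Hps6 was steady, and Hps3 varied widely among the treated libraries. Hps5 (chromosome 7, 46409890 to 46445488) was listed at 2.14, 2.04 and 1.07 FPKM without the analog, against 0.573, 0.996 and 0.874 FPKM with it. Untreated replicate 3 lay just above the highest treated value, so the separation was narrow on that side. Of its 1.07 FPKM, 0.561 FPKM was Hps5-205, a partial model of 760 bases. Without that model the groups overlapped, as they also did without Hps5-202 or without Hps5-203. The log2 difference was -0.58 ± 0.21 (SE), with a 95% interval from -1.08 to -0.08 and an unadjusted limma p of 0.0284 that did not pass after adjustment over all genes. Leaving out 1 library at a time moved that p between 0.00648 and 0.0945, and it was above 0.05 without untreated replicate 1 or 2 or treated replicate 1 or 3. A treated group wholly below the untreated was found for 3.71% of all genes tested and a separation in either direction for 5.8%, beside 1 of 10 members. The exact two-sided permutation p was 0.1, the smallest that 3 against 3 libraries allow. By the estimate of depth described above, Hps5 rested on about 74 to 323 fragments per library, the fewest of the 10 genes. With a pseudocount of 0.1 the log2 difference was -0.99, since the offset of 1 FPKM is as large as the level itself.

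Hps6, a single-exon gene (chromosome 19, 45991947 to 45994612), was steady at 6.70, 7.29 and 5.496 FPKM without the analog, against 5.67, 6.33 and 6.30 FPKM with it. Its log2 difference was -0.07 (-0.40 to 0.26). Hps3 (chromosome 3, 20050109 to 20089479) was listed at 11.7, 8.85 and 11.4 FPKM without the analog, against 20.8, 11.3 and 7.05 FPKM with it. The highest and the lowest of the 6 values were both treated, and the log2 difference of 0.16 (-0.64 to 0.97) became -0.21 without treated replicate 1. In GENCODE M21, Hps3 overlaps Cp, the ceruloplasmin gene on the other strand, which was listed at 0.709 to 2.75 FPKM in the 6 libraries with overlapping groups. Whether the authors' quantification used strand is not given in the sources used here. Hps6 exceeded Hps5 per length by 3.94 ± 1.04 times in untreated and 7.82 ± 1.85 times in treated libraries. All 3 treated ratios lay above the untreated ones (exact two-sided permutation p = 0.1, adjusted over 5 ratios p = 0.5). With Hps6 steady, this ratio restates the Hps5 values above and is not a separate observation. Hps3 exceeded Hps5 by 6.80 ± 3.35 and 18.6 ± 15.4 times (exact permutation p = 0.2, adjusted p = 0.5).

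Both AP-3 genes differed little between the groups, and Ap3d1 varied least of the 10. Ap3d1, which encodes the delta subunit (chromosome 10, 80542790 to 80578098), was listed at 47.9, 51.1 and 48.2 FPKM without the analog, against 49.6, 51.4 and 48.8 FPKM with it. The groups interleaved, and the log2 difference was 0.02 (-0.18 to 0.23). Ap3b1, which encodes the beta subunit found in most cells (chromosome 13, 94495468 to 94702825), was listed at 24.0, 29.9 and 28.4 FPKM without the analog, against 30.6, 30.0 and 24.0 FPKM with it, with a log2 difference of 0.04 (-0.29 to 0.36). Ap3b1 stood at 0.558 ± 0.0503 of the Ap3d1 level in untreated and 0.564 ± 0.0652 in treated cells (exact permutation p = 1). The medium and small subunits that complete the coat were listed between these levels and below: Ap3s1 at 28.4 to 38.5 FPKM, Ap3m1 at 18.4 to 23.7, Ap3s2 at 11.8 to 13.2 and Ap3m2, the neuronal medium subunit, at 5.14 to 8.84 FPKM. Ap3b2, the neuronal beta subunit, was listed at 0 to 0.0635 FPKM.

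The motor genes were abundant in both groups. Mlph (chromosome 1, 90842807 to 90878864) was listed at 65.8, 80.5 and 84.9 FPKM without the analog, against 75.1, 70.8 and 77.6 FPKM with it. The treated values lay inside the untreated range, with a log2 difference of -0.04 (-0.32 to 0.24). Myo5a (chromosome 9, 74978470 to 75130970) was listed at 127, 107 and 106 FPKM without the analog, against 121, 117 and 128 FPKM with it, a log2 difference of 0.11 (-0.14 to 0.36). Mlph stood at 0.691 ± 0.1503 of the summed Myo5a level in untreated and 0.611 ± 0.00968 in treated cells (exact permutation p = 0.4, adjusted over 5 ratios p = 0.667). That sum includes the partial model Myo5a-203, and Mlph-201 was listed above the long model Myo5a-201 in every library. Rab27a, the GTPase that joins melanophilin to the organelle, was listed at 59.2 to 91.4 FPKM, near Mlph. Myrip, which links Rab27a to another myosin in retinal pigment epithelium, was listed at 0 to 0.0839 FPKM.

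Myo5a transcripts are known to differ in the stretch that encodes the tail, where 3 alternative exons of 9, 81 and 75 bases lie, usually called B, D and F. Melanocyte myosin Va is known to carry D and F without B, and exon F is needed to bind melanophilin. In the GENCODE M21 models that share identifiers with the table, the 6 Myo5a models combine these exons differently. The following sequences are shown because they are where the models part. Each runs 5′ to 3′ on the plus strand of chromosome 9 from the last 15 bases of the shared exon before them to the first 15 of the shared exon after, where the model has it, and capitals mark the alternative exons. In GRCm38 these are chr9:75187522-75187530, chr9:75192384-75192464 and chr9:75196126-75196200, all within coding sequence.
Myo5a-201: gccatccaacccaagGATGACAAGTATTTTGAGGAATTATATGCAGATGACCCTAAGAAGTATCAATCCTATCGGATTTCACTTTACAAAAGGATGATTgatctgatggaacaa
Myo5a-203: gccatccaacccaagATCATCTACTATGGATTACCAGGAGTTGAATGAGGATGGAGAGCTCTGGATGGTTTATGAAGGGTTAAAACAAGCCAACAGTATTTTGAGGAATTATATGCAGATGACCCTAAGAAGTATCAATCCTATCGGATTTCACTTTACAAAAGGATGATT
Myo5a-214: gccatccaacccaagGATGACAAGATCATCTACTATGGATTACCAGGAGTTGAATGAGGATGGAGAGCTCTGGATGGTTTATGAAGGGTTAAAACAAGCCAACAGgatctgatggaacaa

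Myo5a-201 holds the 9- and 75-base exons, Myo5a-203 the 81- and 75-base exons and Myo5a-214 the 9- and 81-base exons. None of the 6 models is full-length with the 81- and 75-base exons and without the 9-base exon. Myo5a-203, which has that combination, is a partial model of 684 bases that ends with the 75-base exon, whereas Myo5a-201 is 11702 bases long.

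Nearly all of the Myo5a signal was assigned to models that hold the 75-base exon. They took 99.2%, 98.8% and 98.3% of the summed Myo5a FPKM in untreated replicates 1 to 3, and 92.0%, 92.8% and 98.4% in treated replicates 1 to 3. Models with the 81-base exon took 52.7% to 57.3% over the 6 libraries, and models with the 9-base exon took 44.9% to 51.9%, most of it Myo5a-201. As said above, no full-length model has the 81- and 75-base exons without the 9-base exon. These shares therefore do not show how often the 9-base exon was used. Myo5a-203 was the most abundant model, at 68.7, 57.3 and 54.0 FPKM without the analog, against 59.5, 55.9 and 66.7 FPKM with it, with a log2 difference of 0.02 (-0.29 to 0.33). Myo5a-201 stood beside it at 56.9, 48.8 and 50.0 FPKM without the analog, against 51.6, 52.4 and 59.5 FPKM with it. Because FPKM is per length, the short model held 52.9 ± 1.66% of the untreated sum but, weighted by length, a mean of 6.05% of the gene's fragments over the 6 libraries, and Myo5a-201 held 91.2%.

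The 2 treated libraries with a lower share for models that hold the 75-base exon were those that listed Myo5a-214, which lacks it. These are shares of model FPKM, and use of the exon itself was not measured. All 3 untreated libraries listed this model at 0 FPKM, and treated replicates 1 to 3 listed it at 9.32, 8.21 and 0 FPKM. Myo5a-214 reached the filter only through treated replicates 1 and 2, so its p is no independent support for a difference. It had the smallest unadjusted limma p among the 14 tested models of these genes, 0.0550, with an adjusted p of 0.9998. None of the 14 was called, beside 0.0606% of the 14846 transcripts tested, and 0 had an unadjusted p under 0.05, beside 2.54%. An exact 0 in such a table can be an estimate that failed, so no fold is given. Summed over the models of at least 1000 bases, an alternative chosen after the data were seen, the Myo5a difference was 0.22 on the log2 scale with an unadjusted limma p of 0.0531. These sums did not overlap between the groups, with the treated ones higher, and those of treated replicates 1 and 2 include Myo5a-214. Myo5a-201 alone overlapped. On sums of all models, a separation in either direction was found for 5.8% of all genes tested.

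**Figure D2:**
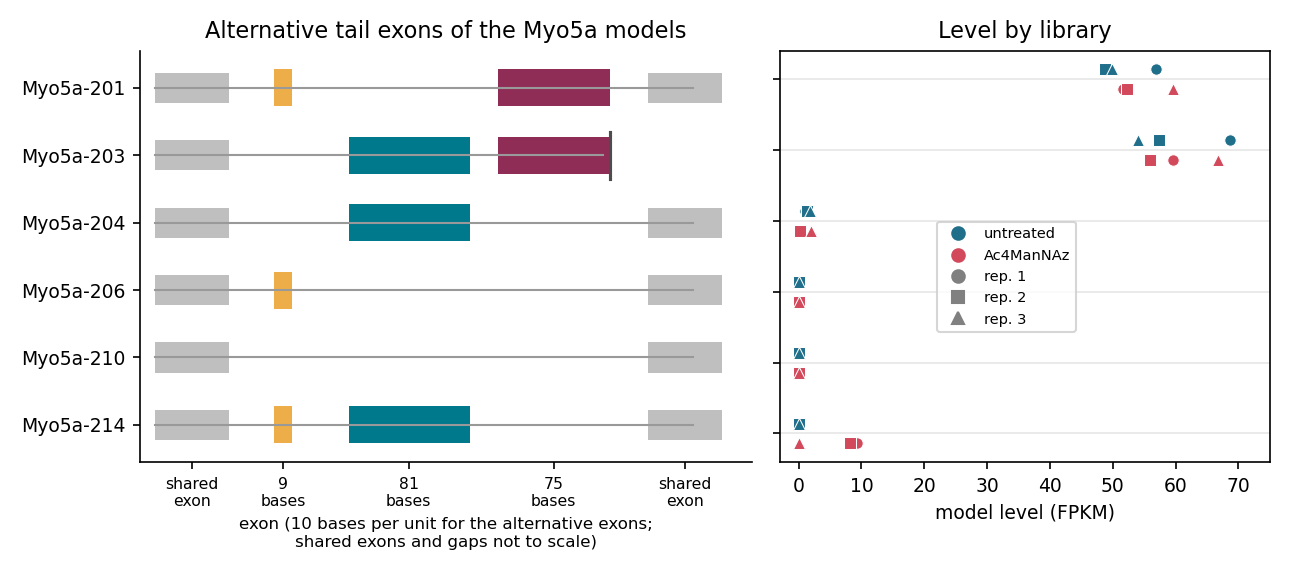
Left, the alternative exons in each Myo5a model (coloured boxes, drawn to scale with one another; grey shared exons and gaps are not to scale; the vertical bar marks where Myo5a-203 ends). Right, the level of each model (FPKM) in each library, where Myo5a-201 and Myo5a-203 lie between 48.8 and 68.7 FPKM and Myo5a-214 is above 0 in 2 treated libraries.

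Lyst (chromosome 13, 13764982 to 13953388) varied as much within groups as between them. It was listed at 9.36, 7.08 and 6.85 FPKM without the analog, against 5.87, 11.5 and 8.91 FPKM with it. The treated libraries held both extremes, and the log2 difference was 0.13 (-0.44 to 0.69), or -0.08 without treated replicate 2. Its full-length model, of 53 exons and 13181 bases, held 83.0% to 92.4% of the sum. The rest lay in Lyst-208, a partial model of 178 bases. Weighted by length, Lyst-208 held a mean of 0.172% of the gene's fragments over the 6 libraries.

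Apart from Hps6, which has 1 model, the BLOC genes were spread over several coding models, and their make-up differed between libraries of the same group. Hps1-204 held 74.0 ± 3.92% of Hps1 in untreated and 70.0 ± 7.68% in treated cells. Hps1-209, which ends early and codes for 1881 rather than 2136 bases, held 9.07 ± 2.17% and 13.1 ± 5.80%. Hps3-202, with 2610 coding bases, was listed above Hps3-201, with 3006, in every library, at 70.3% to 99.2% of the sum. Hps4-201 and Hps4-202 have coding sequences of the same length, 2013 bases. Hps4-201 was listed at 0 in untreated replicate 3 and treated replicate 2, and at 39.5% to 42.9% of the sum in the other 4 libraries. For Hps5, the most abundant model over all libraries, Hps5-202, ranged from 0% of the sum in untreated replicate 3 to 82.3% in untreated replicate 1, and no model of Hps5 averaged 1 FPKM. The lower Hps5 total of treated cells was therefore a sum of models that each fell under the filter of the transcript test. Hps5-205, a partial model of 760 bases, was the model whose 3 treated values (0.172, 0.111 and 0.192 FPKM) all lay below the untreated ones (0.208, 0.521 and 0.561 FPKM). The separation of the Hps5 totals was lost without this model, but also without Hps5-202 or without Hps5-203. Hps5-202 stood at 0.864 ± 0.880 FPKM without the analog and 0.387 ± 0.157 FPKM with it. Hps5-203 stood at 0.261 ± 0.234 and 0.0315 ± 0.0426 FPKM. Both overlapped between the groups.

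**Figure D3:**
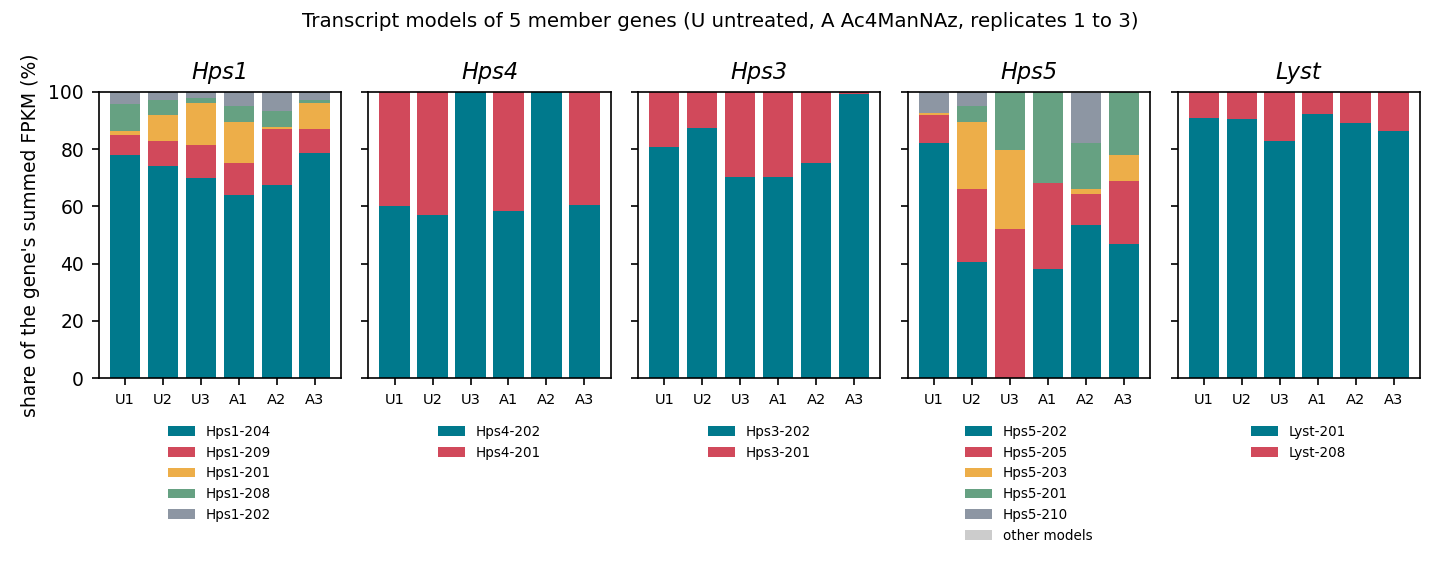
Share of each gene's summed FPKM held by its transcript models (%, stacked bars) in untreated (U) and Ac4ManNAz (A) replicates 1 to 3. Hps1-204, Hps3-202 and Lyst-201 lead in all 6 libraries, and Hps5-202 goes from 0% in U3 to 82.3% in U1.

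No other gene of the pathway passed the test. Of 35 genes in 6 lists, covering BLOC-1, the remaining AP-3 subunits, AP-1 with the kinesin gene Kif13a, the HOPS tethering complex, the melanosome Rabs with their prenylation enzyme, and other tethers, 30 reached a mean of 1 FPKM. limma called 0 of the 30, beside 0% of all genes tested, and 0 had an unadjusted p under 0.05, beside 1.78%. 12 averaged higher and 18 lower, with a median log2 difference of -0.02. The 4 with the smallest p were Ap1g1, Kif13a, Bloc1s1 and Ap3m2. Ap1g1, the gamma subunit of AP-1, stood at 21.8 ± 4.47 FPKM without the analog and 17.2 ± 1.44 FPKM with it, and its log2 difference was -0.31 (-0.70 to 0.09). Kif13a, the kinesin that carries endosomes with AP-1 toward melanosomes, had 6.68 ± 0.103 and 7.95 ± 0.972 FPKM, and its 3 treated values lay above the untreated ones. Groups that do not overlap, in either direction, were found for 5.8% of all genes tested. Its log2 difference was 0.22 (-0.09 to 0.52).

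The GTPases that BLOC-3 activates and the one that Mlph binds did not pass the test either. Rab38 was listed at 301, 307 and 235 FPKM without the analog, against 310, 277 and 243 FPKM with it, above all of the followed genes. Rab32 was listed at 26.9, 56.1 and 47.6 FPKM without the analog, against 32.5, 36.5 and 39.99 FPKM with it, inside the untreated range. The log2 differences were -0.02 (-0.37 to 0.33) for Rab38, -0.20 (-0.81 to 0.41) for Rab32 and -0.14 (-0.54 to 0.27) for Rab27a, none of which passed limma's test.

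**Figure D4:**
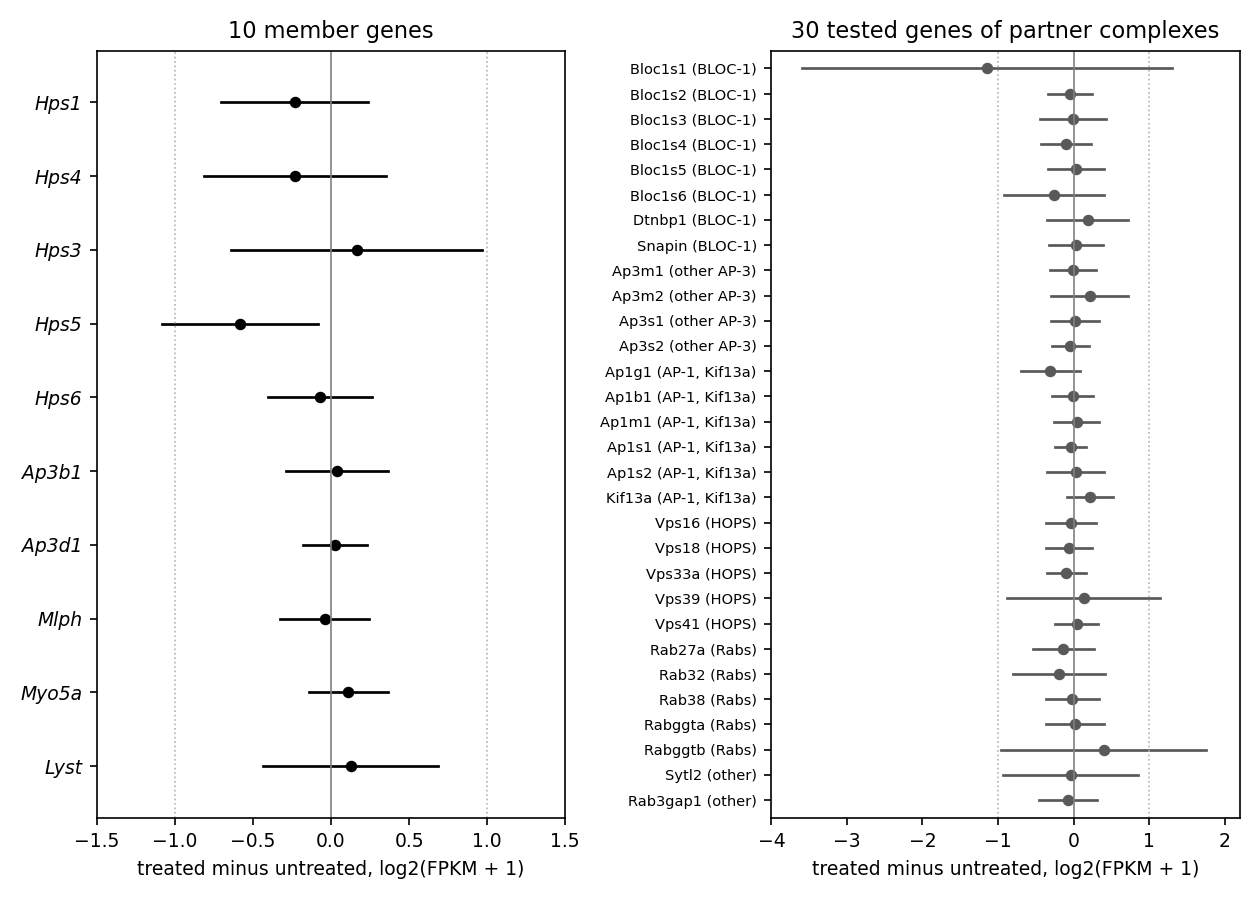
Difference between treated and untreated cells on the log2(FPKM + 1) scale for the 10 followed genes (left) and 30 partner genes (right), as the estimate (point) and its 95% limma interval (line), with dotted lines at 2-fold. All intervals but that of Hps5 cross 0, and Bloc1s1 has the widest, from -3.59 to 1.305.

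Finally, the promoters were read for 2 six-letter sites of the E-box kind that MITF and its relatives bind, CACGTG and CATGTG, on both strands. MITF is the master regulator of the melanocyte lineage and was listed here, as Mitf, at 137 to 223 FPKM. The windows were the 300-base promoter windows of RefSeq on GRCm38.p6, mostly before each start, and all 10 genes matched, with 11 windows. CACGTG was found in windows of 4 genes, Hps1, Hps3, Hps5 and Mlph, and in 7.15% of all 32851 windows. CATGTG was found in 1, Hps1, and in 14.2% of all windows. The stretches are shown because they let the sites be compared between genes of different level, with the sites in capitals and 20 bases on either side, on the strand of the gene. They lie at chr19:42779954-42780012 and chr3:20035300-20035345 on the minus strand for Hps1 and Hps3, at chr7:46796048-46796128 on the minus strand for Hps5, and at chr1:90915032-90915077 on the plus strand for Mlph.
Hps1: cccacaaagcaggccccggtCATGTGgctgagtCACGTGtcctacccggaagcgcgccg
Hps3: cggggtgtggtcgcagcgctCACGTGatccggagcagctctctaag
Hps5: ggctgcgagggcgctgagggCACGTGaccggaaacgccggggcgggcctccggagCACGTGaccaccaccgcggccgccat
Mlph: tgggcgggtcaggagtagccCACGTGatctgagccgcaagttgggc

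Hps5, the lowest by its mean over the 6 libraries though its range overlaps that of Hps4, holds CACGTG in both capitalised places, and Mlph, one of the most abundant, holds it in 1. CACGTG was not found for the abundant Myo5a, Ap3d1 and Ap3b1, nor for Hps4, Hps6 and Lyst. A relation between sites and level was not tested. A match is a string of letters and not a measured binding site, and binding was not analysed here.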

How the data were processed

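The libraries were strand-specific and made from rRNA-depleted total RNA, per the labels' protocols. The authors deposited 1 table of FPKM with a value per transcript and library. The unit comes from the name of the table and its values. The sources used here do not give the aligner, quantifier, build or annotation. All 32 member models have the same span in GENCODE M21 (GRCm38) but 0 the same start, so positions of genes are printed as deposited, and exon structures, lengths and GRCm38 sequences were matched by identifier.

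Groups and replicate numbers came from the sample titles. Transcripts were summed to 21801 genes. Because FPKM does not hold read numbers, count models were left out. limma 3.58.1 (R 4.3.3; lmFit, then eBayes with trend, group as the single term) was run on log2(FPKM + 1), which understates changes of low genes, for the 9925 genes and, separately, the 14846 transcripts that averaged 1 FPKM or more, two-sided, with Benjamini-Hochberg adjustment at 0.05. All 10 members passed the filter, Hps5 through its untreated libraries, since its treated mean of 0.814 FPKM lay below 1 FPKM. The fit was tested on simulated data of uniform spread. Python 3.11.15 with pandas 2.3.3, numpy 2.4.6, scipy 1.17.1 and matplotlib 3.10.9 made the tables and plots. Between partner genes, 5 ratios were compared by exact permutation over the 6 libraries.

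The members and lists were chosen with earlier results of these data known. By rule, all members were named, with the 4 pathway genes of smallest p, and for each member its most abundant model and the one of smallest p. Other genes and models named were chosen after their values were seen. Alternatives were another pseudocount (0.1), filter (none, or a mean of at least 5 FPKM) or scaling, eBayes without trend or robust, sample weights, a replicate block, the most abundant transcript, models of at least 1000 bases, and each library left out.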

Additional observations from a re-analysis of the deposited data

How the results depend on the processing

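Hps5 averaged lower under all alternatives that tested it, from -0.78 to -0.48 on the log2 scale with a library left out, and limma's smallest adjusted p for it was 0.128, with sample weights, under which Myo5a also reached its smallest, 0.145. Hps5 fell below the filter with a mean of at least 5 FPKM (as did Hps4), with the most abundant transcript and with models of at least 1000 bases. No member was called under any alternative, and the pathway lists kept 0 calls. The sign of several differences that did not pass the test changed. With sample weights Hps1 became 0.0211, Hps3 -0.25, Ap3b1 -0.22 and Ap3d1 -0.0349, and Mlph became 0.0061 with equal summed FPKM and 0.0101 with quantile normalization. With a library left out, differences ran from -0.37 to -0.0548 for Hps1, -0.37 to 0.0430 for Hps4, -0.21 to 0.51 for Hps3, -0.17 to 0.0045 for Hps6, -0.0532 to 0.15 for Ap3b1, 0.0039 to 0.0532 for Ap3d1, -0.15 to 0.0320 for Mlph, 0.06 to 0.19 for Myo5a and -0.0762 to 0.36 for Lyst. The log2 ratio of Hps1 to Hps4 differed by 0.07, by -0.0313 with the most abundant transcript, and by -0.23 to 0.31 with a library left out, and that of Ap3b1 to Ap3d1 by -0.0636 to 0.11. The cause of these changes was not tested.

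limma called 0 of all genes, with 177 at an unadjusted p under 0.05, but 2 with sample weights, 4 with the most abundant transcript and 0 to 1 with a library left out. It called 9 transcripts, but 2 with a mean of at least 5 FPKM, 15 without trend, 19 with sample weights and 4 to 14 with a library left out. It was not settled whether the replicate numbers pair the libraries. Deviations of same-numbered libraries correlated at 0.06, 0.02 and 0.26 across genes, and 3 of 6 libraries correlated best with their own number. With the replicate block limma called 0 genes and 1 transcript. Read depth was only inferred from the FPKM values, so no counting interval is given, and Hps4 and Hps5 rest on the fewest implied fragments.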

Other observations

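The levels of 3 partner genes varied widely within both groups. Bloc1s1, a BLOC-1 subunit, was listed at 46.6, 49.8 and 7.999 FPKM in replicates 1 to 3 of the untreated cells, against 56.9, 5.41 and 4.42 FPKM in those of the treated. Vps39, a HOPS subunit, was listed at 22.5, 10.8 and 8.66 FPKM without the analog, against 8.67, 13.5 and 24.1 FPKM with it. Rabggtb, a subunit of the enzyme that prenylates Rabs, was listed at 1.80, 7.99 and 4.47 FPKM without the analog, against 10.4, 7.81 and 2.15 FPKM with it. Vps11, a core subunit of HOPS, was listed at 0.0478 to 0.370 FPKM in 5 libraries and at 2.25 FPKM in treated replicate 1, while its partners Vps16, Vps18, Vps33a and Vps41 were listed at 11.2 FPKM or more in every library.

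Of 10 genes for melanosome cargo and membrane proteins, all reached the filter, limma called 0, and 0 had an unadjusted p under 0.05. 4 averaged higher and 6 lower with the analog, with a median log2 difference of -0.04. Oca2, a melanosomal membrane protein gene, had the smallest unadjusted limma p of the list, 0.0553 (adjusted p = 0.9998). It was listed at 18.1, 8.57 and 9.65 FPKM without the analog, against 12.2, 1.64 and 1.70 FPKM with it, so treated replicate 1 lay inside the untreated range and the other two below it. Its log2 difference was -1.46 (-2.96 to 0.04). Mlana had a log2 difference of -0.78 (-2.48 to 0.92), with 1 low library, treated replicate 2. The other 8 lay between -0.10 and 0.15. Tyrp1, whose product AP-3 and BLOC complexes are known to deliver, was listed at 2649, 2497 and 2266 FPKM without the analog, against 2277, 2389 and 2430 FPKM with it, with overlapping groups. Atp7a, the copper pump that supplies tyrosinase and reaches melanosomes through BLOC-1, was listed at 12.1, 11.6 and 11.0 FPKM without the analog, against 10.2, 16.7 and 12.8 FPKM with it.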
